A study of Rattus norvegicus with 20 samples.

Results

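The 10 genes described here make serine, asparagine, proline and one-carbon units, or break down cystathionine to give cysteine. They were taken as a list of gene symbols, and all 10 of 10 were found among the 18166 genes measured on the arrays, each read from its brightest probe set with exactly 1 symbol. The study hybridised RNA of INS-1 cells to 20 Rat Gene 2.0 arrays (Affymetrix), 5 in each of 4 groups; INS-1 comes from a rat insulinoma, secretes insulin and stands in for the beta cell. The cells had been split into 5 clones for 10 passages. Per well 100000 cells were seeded and grown for 48 h before treatment, and RNA was taken 10 h after treatment. The groups were IAPP (islet amyloid polypeptide, a beta-cell hormone that forms amyloid, 77 uM in the series description), its solvent DMSO (1%), C4BPD and C4BP, named as in the array titles. C4BP is C4b-binding protein, a plasma inhibitor of complement, given at 0.6 uM. The labels also give a dose of 300 ug/ml, which is not assigned here to either protein. The titles C4BPD and C4BP are not explained, and their likely reading, from the 4 conditions of the study and the numbering of the titles, is C4BP without IAPP and C4BP with IAPP. No group was left untreated. A separate treatment field names the same condition as the title on 2 of the 10 arrays titled DMSO or IAPP, and on 3 of all 20 under that reading, so each group below rests on the titles. The labels do not tie the replicate number to a clone, so p-values measure the spread between these wells.

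Cells build serine from a glycolytic intermediate in 3 steps, catalysed in turn by Phgdh, Psat1 and Psph. In mitochondria Shmt2 passes a carbon of serine to folate, and Mthfd2 and Mthfd1l carry that carbon on to formate, which leaves to serve purine and thymidylate synthesis. Asns makes asparagine from aspartate, with glutamine as nitrogen donor. Aldh18a1 and Pycr1 carry out the first and last steps from glutamate to proline, and Cth, cystathionine gamma-lyase, releases cysteine in the last step of transsulfuration. Several of these genes are textbook targets of ATF4, the transcription factor that cells make when amino acids run short or the endoplasmic reticulum is under stress, and beta cells, which secrete large amounts of protein, use that response heavily.

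All values are intensities on a linear scale, normalized by the study's authors, and differences are on the log2 scale from a limma fit to all 20 arrays, with p-values adjusted by Benjamini-Hochberg over all 18166 genes and a threshold of 0.05. The median intensity of an array ran from 170.01 to 182.36. The beta-cell label was checked against marker genes: 8 of 8 measured markers, Ins1, Ins2 and Iapp among them, lay above the median of all genes (331.7), and so did Gcg, which encodes glucagon and averaged 9400 to 10304 in the groups. None of 7 measured fibroblast, endothelial and leukocyte markers reached that median, their mean log2 level was 6.57 in DMSO, 6.59 in IAPP, 6.51 in C4BPD and 6.62 in C4BP, and 0 of the 7 passed the test in any comparison with DMSO. Among the beta-cell markers Mafa and Slc2a2 were lower in IAPP (-0.26 and -0.11) and in C4BP (-0.25 and -0.14), and 0 of 8 passed in C4BPD, while Gcg was lower in IAPP. The mean log2 level of the 8 beta-cell markers was 12.2 in DMSO, 12.12 in IAPP, 12.17 in C4BPD and 12.11 in C4BP. The part of these shifts in the results below was not tested. In bulk RNA, fewer cells making a transcript and less transcript per cell cannot be told apart.

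The 300 bases around the start site (250 before, 50 after) are shown for Psat1 and Asns, whose calls against DMSO held in the most alternatives, and for Pycr1, in capitals where the letters TGATGNAA of the C/EBP-ATF response element, which ATF4 binds, were found on either strand. The sequences are RefSeq's on GRCr8, read 5′ to 3′ along the gene: Psat1 at chr1:222645359-222645658, Asns at chr4:36769366-36769665 and Pycr1 at chr10:106420763-106421062, all on the minus strand. The table held 9 of the 10 members, all but Aldh18a1.
Psat1: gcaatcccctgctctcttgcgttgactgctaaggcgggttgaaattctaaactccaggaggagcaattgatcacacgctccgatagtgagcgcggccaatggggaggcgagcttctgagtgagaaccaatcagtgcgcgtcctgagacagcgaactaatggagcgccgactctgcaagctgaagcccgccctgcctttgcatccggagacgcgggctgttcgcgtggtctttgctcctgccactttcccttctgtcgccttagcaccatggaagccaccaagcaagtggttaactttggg
Asns: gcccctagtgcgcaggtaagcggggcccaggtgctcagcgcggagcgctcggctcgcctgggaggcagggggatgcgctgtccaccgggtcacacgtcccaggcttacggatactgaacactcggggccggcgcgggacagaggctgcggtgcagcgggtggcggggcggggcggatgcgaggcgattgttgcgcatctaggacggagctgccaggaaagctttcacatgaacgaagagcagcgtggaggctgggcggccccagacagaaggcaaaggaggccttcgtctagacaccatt
Pycr1: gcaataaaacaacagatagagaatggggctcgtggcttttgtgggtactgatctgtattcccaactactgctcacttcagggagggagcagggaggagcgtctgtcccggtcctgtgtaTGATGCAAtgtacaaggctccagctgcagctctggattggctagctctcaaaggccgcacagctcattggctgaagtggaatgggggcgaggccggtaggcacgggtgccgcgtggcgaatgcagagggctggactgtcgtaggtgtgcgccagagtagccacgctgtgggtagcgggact
Of the 9 promoters, 1 held the element, that of Pycr1, where its first base lies at position -131 from the start site, against 3.98% of 33469 promoters of the same length. The cAMP response element TGACGTCA was in 0 of 9 (1.83% of all promoters), the E-box CACGTG in 1 of 9, Cth (6.42%), and the antioxidant response element TGACNNNGC in 1 of 9, Phgdh (12.1%), with both strands searched and no matches overlapping among the members. A missing match says only that these letters are not in this window.

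Set against DMSO, 4 to 7 of the 10 transcripts were higher past the threshold in each of the 3 treated groups, by at most 0.45 on the log2 scale. None was lower past the threshold, and Phgdh, Psph and Cth passed in none of the 3 comparisons. In IAPP 6 of 10 rose (Psat1, Asns, Mthfd2, Pycr1, Shmt2 and Aldh18a1), against 1.41% of all genes called higher. In C4BPD 4 of 10 rose (Psat1, Mthfd2, Asns and Shmt2), against 1.17% of all genes. In C4BP 7 of 10 rose, the 6 of IAPP and Mthfd1l, against 2.72%. Lower calls made up 1.97%, 0.765% and 3.23% of all genes in the same order. All treated arrays lay above all DMSO arrays for 6 members in IAPP (2.14% of all genes), 4 in C4BPD (1.99%) and 5 in C4BP (2.85%). The median difference of the 10 was 0.18 in IAPP, 0.11 in C4BPD and 0.21 in C4BP, beside 0.002, -0.009 and 0.005 over all genes tested. Across the 4 groups 6 of 10 differed in the moderated F test, against 7.85% of all genes. The 10 members were chosen with earlier results of these data known, so their counts beside the shares of all genes are a description. The 3 comparisons with DMSO share the same 5 DMSO arrays, so they are not independent of each other. In IAPP vs DMSO the count fell to 3 when only those 10 arrays were fitted. It fell to 2 without all arrays numbered 2 or all numbered 4, and to 3 without all numbered 5. Calls over all genes in these 4 fits, in both directions, went from 614 to 466, 286, 235 and 335 in the same order.

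**Figure D1:**
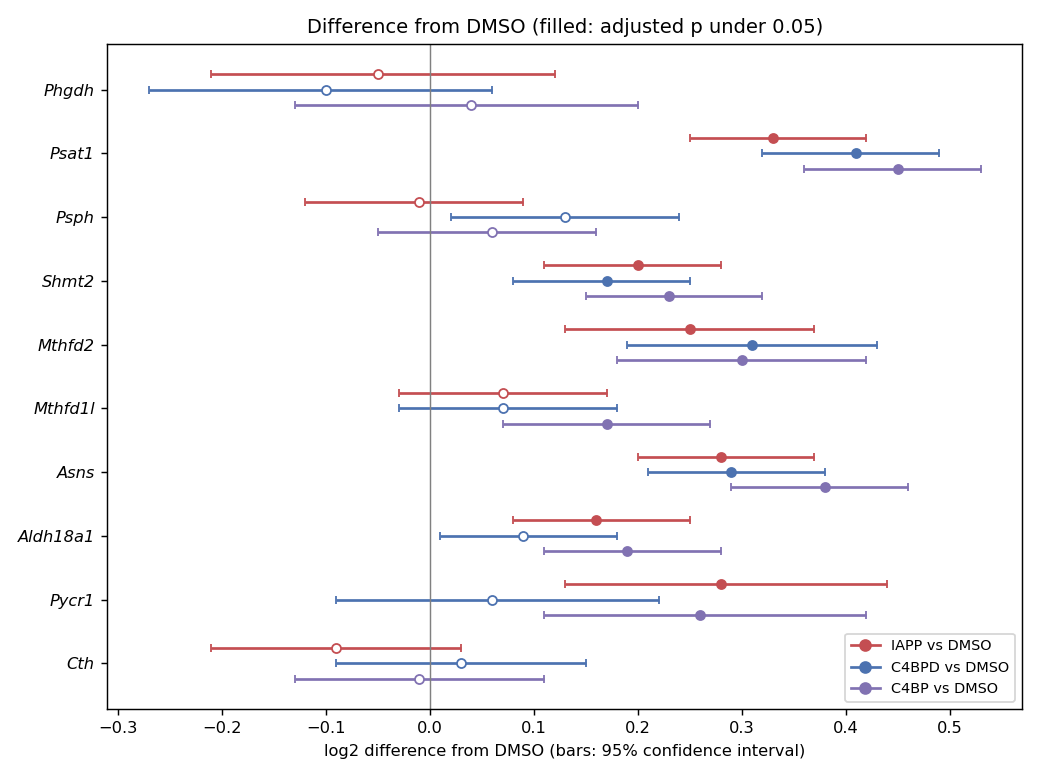
Log2 difference of each treated group from DMSO for the 10 genes (x axis; rows are genes), from the limma fit to 20 arrays, with 95% confidence intervals; filled points passed an adjusted p of 0.05. Psat1 lies farthest to the right in each group, at 0.33, 0.41 and 0.45, while the intervals of Phgdh and Cth include 0 in all 3.

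Of the 3 serine enzymes Psat1 rose in all 3 comparisons with DMSO, and the other two did not pass in any. Psat1, phosphoserine aminotransferase (probe set 17640908), read 4709, 4825, 5379, 4852 and 4857 on the DMSO arrays of replicates 1 to 5. On the IAPP arrays it read 6131, 6185, 6395, 6125 and 6192, on the C4BPD arrays 6330, 6383, 7067, 6280 and 6604, and on the C4BP arrays 6450, 6773, 6813, 6734 and 6807. Every treated array was above every DMSO array, and the lowest C4BP array was above the highest IAPP array. The group means were 4924 ± 261 in DMSO, 6205 ± 110 in IAPP, 6533 ± 323 in C4BPD and 6715 ± 152 in C4BP (SD, n = 5 each). Psat1 was thus 1.26-fold higher in IAPP (adjusted p = 3.23e-05), 1.33-fold in C4BPD (adjusted p = 2.75e-06) and 1.36-fold in C4BP (adjusted p = 3.69e-07).

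Phgdh, the dehydrogenase that opens the pathway (probe set 17749783), was dim in every well. It read 74, 70.5, 66.9, 57.7 and 69.7 in DMSO, 54.1, 74.3, 69.1, 61.6 and 69.3 in IAPP, 62.5, 58.1, 67.8, 68.7 and 58.1 in C4BPD, and 69.5, 72.1, 74, 65.4 and 66.1 in C4BP. These values lie far under the median of all genes, nothing in the files shows that they exceed background, and the 4 groups overlapped throughout. The 95% intervals of its differences from DMSO ran from -0.21 to 0.12 in IAPP, from -0.27 to 0.06 in C4BPD and from -0.13 to 0.20 in C4BP. Psph, the phosphatase that ends the pathway (probe set 17677242), was well expressed and averaged 2223 ± 103 in DMSO, 2202 ± 113 in IAPP, 2435 ± 122 in C4BPD and 2312 ± 154 in C4BP. Its arrays ran from 2104 to 2327 in DMSO, from 2093 to 2376 in IAPP, from 2301 to 2577 in C4BPD and from 2114 to 2477 in C4BP, with all groups overlapping DMSO. Its differences from DMSO were -0.01 (95% interval -0.12 to 0.09), 0.13 (0.02 to 0.24, adjusted p = 0.264) and 0.06 (-0.05 to 0.16).

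The log2 ratio of 2 members on the same array was compared with DMSO for neighbouring steps. The Psat1 to Psph ratio was higher by 0.35 in IAPP, 0.28 in C4BPD and 0.39 in C4BP, with every treated array above every DMSO array. All 6 pairs were chosen with earlier results of these data known. The rise of Psat1 was known too, so the Psat1 to Psph difference is a description. No ratio is given to the dim Phgdh. In all, 18 ratios were tested (two-sided exact permutation over every split of 5 against 5 arrays, smallest possible p = 0.00794, adjusted over 18 tests). The 6 ratios of Psat1 to Psph and to Phgdh passed, which restates the known rise of Psat1 and is no support for it. None of the 12 ratios of the 4 other pairs passed the threshold.

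The mitochondrial one-carbon enzymes rose in part. Mthfd2, a methylenetetrahydrofolate dehydrogenase and cyclohydrolase (probe set 17880740), read 3034, 2797, 3275, 2745 and 2694 in DMSO and 3484, 3391, 3523, 3361 and 3496 in IAPP. It read 3666, 3469, 4044, 3376 and 3434 in C4BPD and 3630, 3323, 3757, 3727 and 3420 in C4BP, so all 15 treated arrays were above the highest DMSO array. The rise was 1.19-fold in IAPP (adjusted p = 0.0146), 1.24-fold in C4BPD (adjusted p = 0.00406) and 1.23-fold in C4BP (adjusted p = 0.00192). A second, dimmer probe set of the gene, which averaged 1965 ± 117 in DMSO, rose by 0.18, 0.28 and 0.30 on the log2 scale (adjusted p = 0.0356, 0.00244 and 0.0003 over all probe sets). In IAPP vs DMSO the call of the brighter probe set was lost without all arrays of number 1, 2, 4 or 5 (adjusted p from 0.0504 to 0.126; 0.00103 to 0.126 over the alternatives).

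Shmt2, the mitochondrial serine hydroxymethyltransferase (probe set 17836571), read 2172, 2314, 2491, 2446 and 2522 in DMSO. It read 2621, 2683, 2744, 2785 and 2844 in IAPP, 2634, 2641, 2743, 2715 and 2654 in C4BPD, and 2776, 2691, 2817, 2882 and 2841 in C4BP. The lowest treated array again lay above the highest DMSO array, and the IAPP, C4BPD and C4BP groups overlapped one another. Shmt2 rose 1.15-fold in IAPP (adjusted p = 0.00653), 1.12-fold in C4BPD (adjusted p = 0.0352) and 1.17-fold in C4BP (adjusted p = 0.000808). Without all arrays of any 1 number the C4BPD call was lost (adjusted p from 0.082 to 0.159). The C4BPD call was lost without DMSO 1, 2 or 4 or C4BPD 2, 3, 4 or 5 (adjusted p from 0.0506 to 0.09; 0.00451 to 0.159 over the alternatives), and the IAPP call without all arrays numbered 2 or 4 or with those 10 arrays fitted alone (adjusted p from 0.0547 to 0.0641; 0.000772 to 0.0641 over all).

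Mthfd1l, the formate-releasing synthetase of mitochondria (probe set 17611443), averaged 609 ± 29.4 in DMSO, 639 ± 24 in IAPP, 641 ± 33.2 in C4BPD and 685 ± 44.7 in C4BP. Its arrays read 613, 605, 573, 600 and 654 in DMSO and 724, 638, 740, 653 and 670 in C4BP, and these groups overlapped. It passed in C4BP alone, at 0.17 (adjusted p = 0.0461), and was at 0.07 in IAPP and 0.07 in C4BPD. The C4BP call was lost in 14 of 20 fits without a single array, which were those without DMSO 1 to 4, IAPP 1, 3, 4 or 5, C4BPD 2, 3 or 4, or C4BP 1, 3 or 5 (adjusted p from 0.0531 to 0.129; 0.0169 to 0.292 over the alternatives). That call was also lost without all arrays of number 1, 2, 3 or 4 (adjusted p from 0.0772 to 0.292). The ratio of Mthfd2 to Mthfd1l within arrays was higher by 0.23 in C4BPD (exact permutation, adjusted p = 0.0714), and that of Mthfd2 to Shmt2 by 0.14 (adjusted p = 0.214).

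Asns, asparagine synthetase (probe set 17789627), rose in all 3 treated groups. It read 3290, 3142, 3483, 3239 and 3530 in DMSO, 3907, 4077, 3984, 4153 and 4167 in IAPP, 3885, 4019, 4292, 4164 and 4092 in C4BPD, and 4280, 4371, 4242, 4212 and 4565 in C4BP. No treated array overlapped DMSO, and the C4BP arrays lay above all IAPP arrays. The rise was 1.22-fold in IAPP (adjusted p = 0.000183), 1.23-fold in C4BPD (adjusted p = 0.000157) and 1.30-fold in C4BP (adjusted p = 2.77e-06). Asns and Psat1 were the 2 members that kept their calls in all 3 comparisons with DMSO under every alternative run but the grouping by the treatment field. The ratio of Asns to Psat1 within arrays was at -0.05, -0.11 and -0.07 relative to DMSO, with no exact test past the threshold.

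The proline enzymes rose in the IAPP and C4BP groups. Aldh18a1, which makes the glutamate semialdehyde precursor (probe set 17642026), read 4152, 3684, 4079, 3811 and 3826 in DMSO and 4540, 4292, 4440, 4297 and 4315 in IAPP. It read 4357, 4031, 4374, 4027 and 4066 in C4BPD, where 3 of 5 arrays were under the highest DMSO array, and 4643, 4438, 4473, 4296 and 4495 in C4BP, all above DMSO. Aldh18a1 was 1.12-fold higher in IAPP (adjusted p = 0.0242) and 1.14-fold in C4BP (adjusted p = 0.00411), and at 0.09 in C4BPD (95% interval 0.01 to 0.18, adjusted p = 0.336). Without all arrays of number 2, 3, 4 or 5 the IAPP call of Aldh18a1 was lost (adjusted p from 0.0708 to 0.162). Its IAPP call was lost without DMSO 2, 4 or 5 or IAPP 1 or 3 (adjusted p from 0.0582 to 0.083; 0.00104 to 0.162 over the alternatives), and its C4BP call without all arrays numbered 5 (adjusted p = 0.0504; 0.000128 to 0.0504 over the alternatives).

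Pycr1, the mitochondrial pyrroline-5-carboxylate reductase (probe set 17664059), read 397, 314, 360, 344 and 326 in DMSO, 474, 400, 443, 398 and 401 in IAPP, 423, 328, 369, 332 and 368 in C4BPD, and 464, 417, 414, 407 and 384 in C4BP. All IAPP arrays were above DMSO, the lowest at 398 against the highest DMSO array at 397, while C4BPD lay across the DMSO range and the lowest C4BP array was under the highest DMSO array. It was 1.22-fold higher in IAPP (adjusted p = 0.0397) and 1.20-fold in C4BP (adjusted p = 0.0404), and at 0.06 in C4BPD (95% interval -0.09 to 0.22). Without all arrays of number 2, 3, 4 or 5 both calls were lost (adjusted p from 0.143 to 0.177 in IAPP and from 0.12 to 0.179 in C4BP). Each of the calls was lost in 9 of the 20 fits without 1 array: for IAPP, without DMSO 2 to 5, IAPP 1 to 4 or C4BPD 5 (adjusted p from 0.0512 to 0.126; 0.000284 to 0.177 over the alternatives), and for C4BP, without DMSO 2 to 5, C4BPD 5 or C4BP 1 to 4 (0.0501 to 0.117; 0.000297 to 0.179 over all).

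Cth, which completes transsulfuration (probe set 17752186), did not pass in any comparison. It averaged 162 ± 7.71 in DMSO, 152 ± 8.38 in IAPP, 165 ± 13.8 in C4BPD and 160 ± 10 in C4BP, under the median of all genes and with overlapping arrays, which ran from 145 to 184 over all groups. The 95% intervals of its differences from DMSO were -0.21 to 0.03, -0.09 to 0.15 and -0.13 to 0.11.

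**Figure D2:**
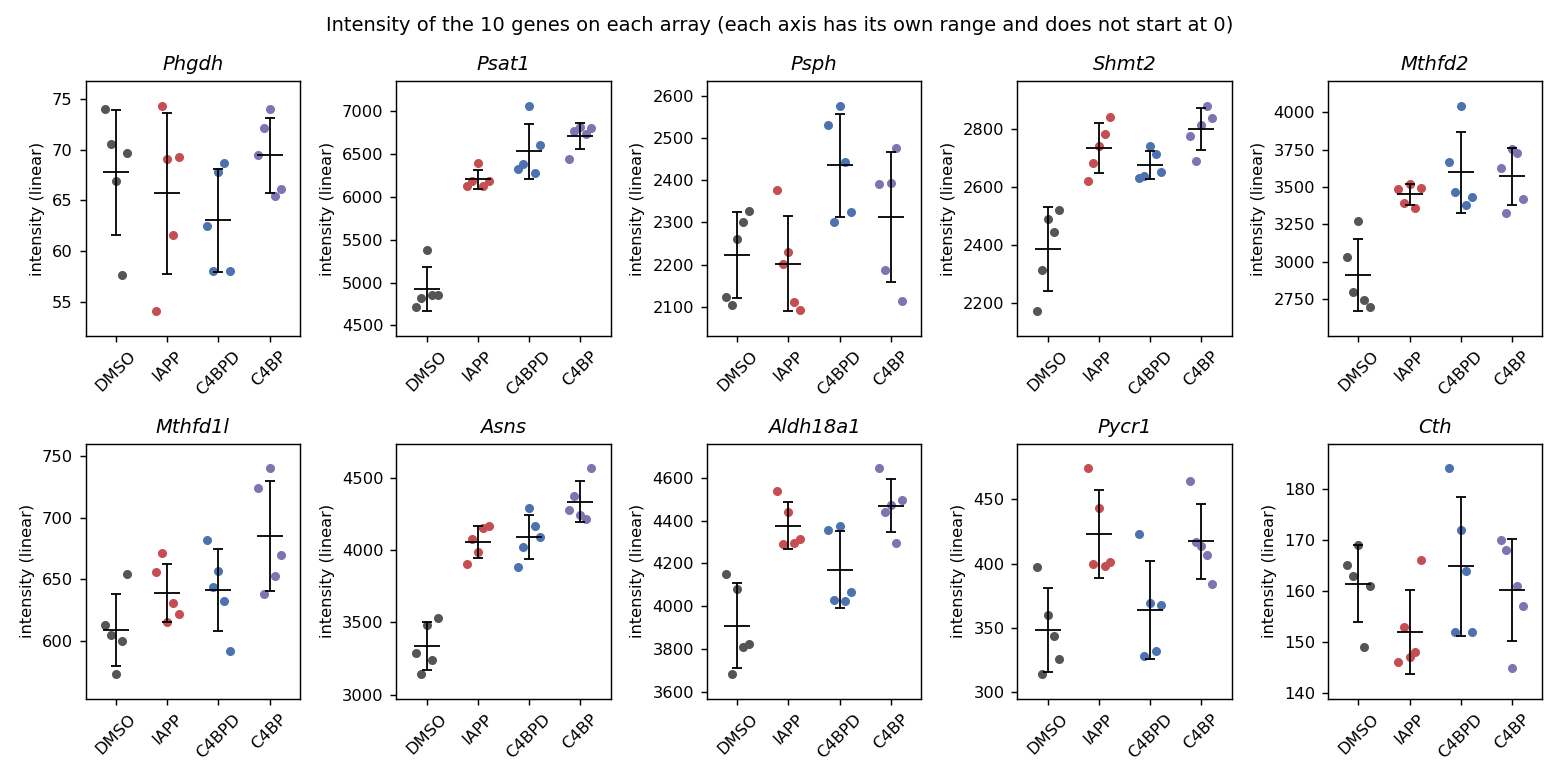
Intensity (linear, authors' normalization) of each gene on each of the 20 arrays, with the group mean and SD (n = 5); each panel has its own axis, which does not start at 0. All treated arrays lie above all DMSO arrays for Psat1, Mthfd2, Shmt2 and Asns, while the groups overlap for Phgdh, Psph and Cth.

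Under the likely reading of the titles, C4BP vs IAPP asks what C4BP added to IAPP, and 0 of 10 members passed, against 0.606% of all genes called (limma; 2 of 10, Psat1 and Asns, had an unadjusted p under 0.05, against 7.93% of all genes). Psat1 was at 0.11 (95% interval 0.03 to 0.20, adjusted p = 0.327) and Asns at 0.09 (0.01 to 0.18, adjusted p = 0.516). They were the 2 members whose C4BP arrays all lay above the IAPP arrays, against 1.48% of all genes in that direction. In C4BP vs C4BPD, which asks what IAPP added to C4BP, 0 of 10 passed against 2.37% of all genes, and 3 had an unadjusted p under 0.05 against 13.7%, with unadjusted passes in Pycr1 (0.20, adjusted p = 0.216), Aldh18a1 (0.10, adjusted p = 0.258) and Asns (0.08, adjusted p = 0.362).

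In C4BPD vs IAPP 0 of 10 passed against 5.46% of all genes, and 2 had an unadjusted p under 0.05 against 18.2%, a share near that of all genes. The value of largest size was that of Pycr1, at -0.22 (adjusted p = 0.1), lower in C4BPD. With the replicate number as a block in a fit to all 20 arrays, Pycr1 passed at -0.22 (adjusted p = 0.00161, and 0.00161 to 0.277 over the alternatives). That made 1 of 10 called, against 10.5% of all genes in that fit. Pycr1 also passed without C4BPD 1 (adjusted p = 0.027). In C4BP vs C4BPD the blocked fit called Pycr1 (adjusted p = 0.00548) and Aldh18a1 (adjusted p = 0.0366), against 958 of 18166 genes. The labels do not say whether the numbers pair the arrays.

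The interaction asks whether the difference made by IAPP was altered by C4BP. Psat1 was 0.33 higher in IAPP than in DMSO and 0.04 higher in C4BP than in C4BPD, and its interaction, the second difference minus the first, was -0.29 (95% interval -0.41 to -0.18, adjusted p = 0.0669). It did not pass, as 0 of 10 members did, against 0.0495% of all genes, while 4 of 10 had an unadjusted p under 0.05 (limma), against 3.79% of all genes. The others of those 4 were Mthfd2 at -0.26 (-0.43 to -0.09, adjusted p = 0.906), Asns at -0.20 (-0.32 to -0.08, adjusted p = 0.658) and Shmt2 at -0.13 (-0.25 to -0.01, adjusted p = 1.0). Psat1 passed without DMSO 3 (-0.33, adjusted p = 0.0174), an array on which it read 5379, and in 4 other fits (adjusted p from 0.00625 to 0.0465; 0.00625 to 0.711 over the alternatives). The median interaction of the 10 members was -0.07, beside 0.009 over all genes.

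**Figure D3:**
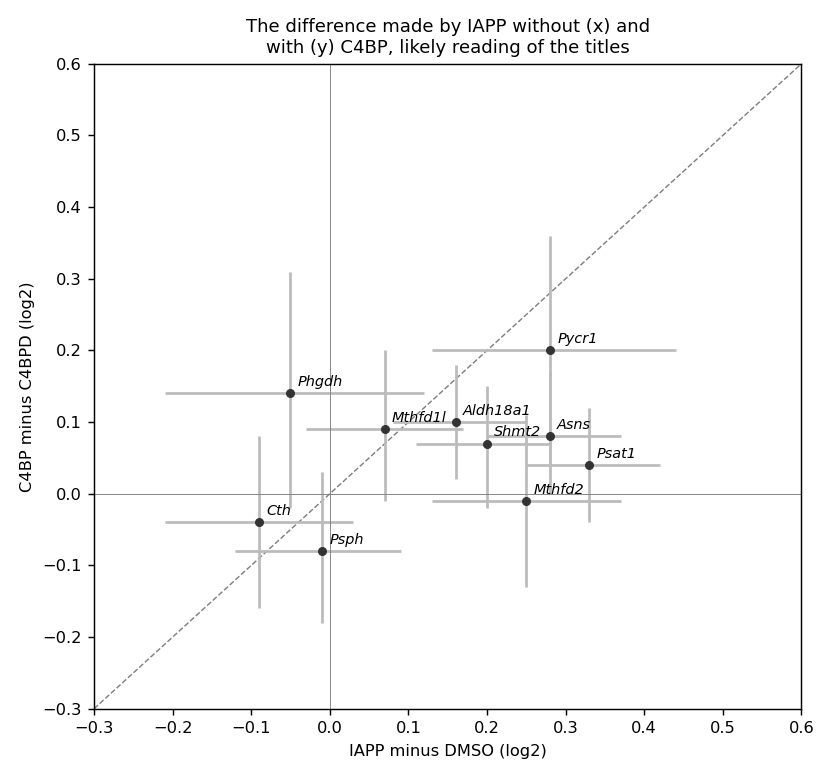
Log2 difference IAPP minus DMSO (x axis) against C4BP minus C4BPD (y axis) for the 10 genes, with 95% confidence intervals; the dashed line marks equal differences. Psat1 (0.33 and 0.04), Asns (0.28 and 0.08) and Mthfd2 (0.25 and -0.01) lie below the line, and none of the 10 interactions passed the threshold.

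Within the groups the levels followed the replicate number for some members. Psat1 was highest on replicate 3 in all 4 groups (5379, 6395, 7067 and 6813), and so was Mthfd2 (3275, 3523, 4044 and 3757). Pycr1 was highest on replicate 1 in all 4 (397, 474, 423 and 464), and Aldh18a1 on replicate 1 in DMSO, IAPP and C4BP and on replicate 3 in C4BPD. Asns had its highest array on replicate 5 in DMSO, IAPP and C4BP and on replicate 3 in C4BPD. For Phgdh, Psph and Mthfd1l the highest array had a different replicate number in each group. The share of all genes with the same highest replicate in every group was not counted, so this is no trait of the members in particular. Whether the number stands for a clone, a plate or a day is not given in the sources used here, and its part in these levels was not tested.

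**Figure D4:**
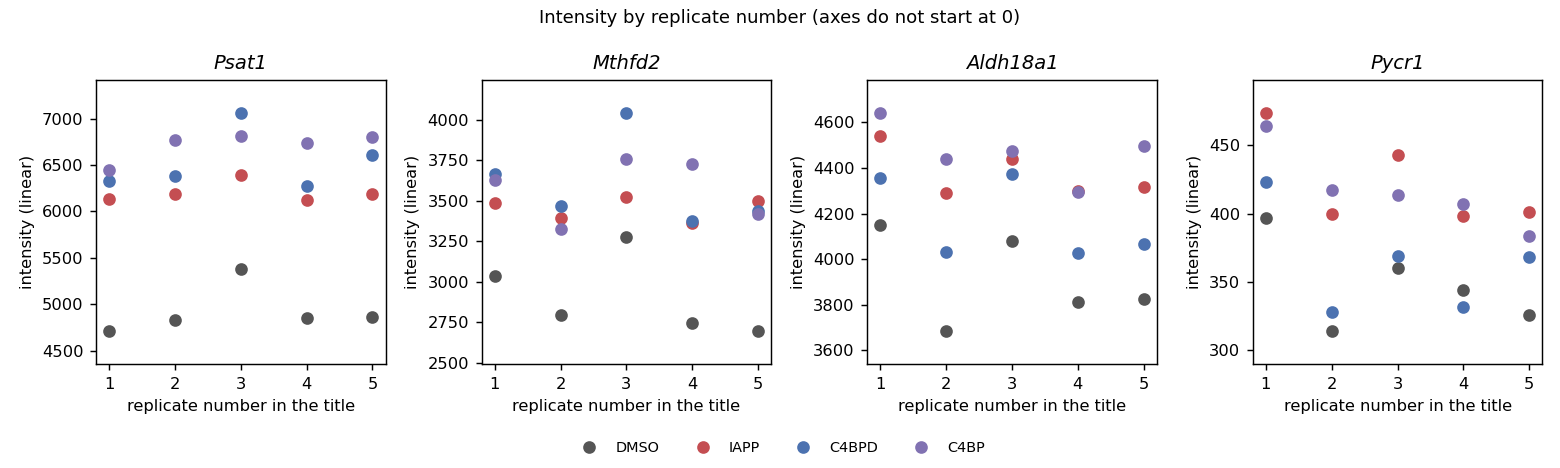
Intensity (linear; axes do not start at 0) of Psat1, Mthfd2, Aldh18a1 and Pycr1 by the replicate number in the title, 1 point per array, coloured by group. Replicate 3 is the highest of its group in all 4 groups for Psat1 and Mthfd2, and replicate 1 for Pycr1.

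Genes next to these pathways were called in both directions in IAPP. Of 76 genes in 6 lists (use of serine and glycine, folate metabolism, purine synthesis, the aspartate and glutamine group, proline and ornithine, methionine and transsulfuration), 61 were measured. In IAPP vs DMSO 3 of 61 rose (Gpt2, Gclc and Gclm) and 3 fell (Aldh4a1, Tyms and Csad), against 1.41% and 1.97% of all genes. In C4BPD vs DMSO 2 rose (Gpt2 and Aldh1l2, against 1.17% of all genes) and 0 fell, and in C4BP vs DMSO 5 rose (Gpt2, Gclc, Gclm, Aldh1l2 and Pepd, against 2.72%) and 0 fell. The median differences of the 61 genes were -0.03, 0.00 and -0.01, beside 0.002, -0.009 and 0.005 over all genes.

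Gpt2, a mitochondrial alanine aminotransferase, averaged 708 ± 42.7 in DMSO, 985 ± 28.8 in IAPP, 948 ± 137 in C4BPD and 1044 ± 106 in C4BP, and rose by 0.48, 0.41 and 0.56 on the log2 scale (adjusted p = 0.00108, 0.0062 and 9.71e-05). All its treated arrays were above DMSO. Aldh1l2, the mitochondrial enzyme that releases carbon dioxide from formyl-folate, was at 0.12 in IAPP and rose by 0.34 in C4BPD (adjusted p = 0.0317) and 0.36 in C4BP (adjusted p = 0.00851); it, Csad and Pepd were named after their values were seen. Aldh4a1, which breaks down the semialdehyde of proline and so runs against Aldh18a1 and Pycr1, fell in IAPP from 633 ± 8.97 to 511 ± 44.1 (-0.31, adjusted p = 0.00124), with no overlap. It was at 631 ± 30.7 in C4BPD and 575 ± 27 in C4BP. Tyms, thymidylate synthase, fell by 0.13 on the log2 scale in IAPP (adjusted p = 0.0372). The Tyms call was lost without DMSO 2 to 5 or IAPP 1 to 4 (adjusted p from 0.0566 to 0.109, and 0.0109 to 0.267 over the alternatives). It was also lost without all arrays of any 1 number (adjusted p from 0.0529 to 0.267). Gclc and Gclm, the subunits of the enzyme that uses cysteine for glutathione, rose in C4BP by 0.50 and 0.34 on the log2 scale, in IAPP by 0.27 and 0.21, and were at 0.19 and 0.13 in C4BPD (adjusted p = 0.124 and 0.068), where they passed in some alternatives (0.00825 to 0.457 and 0.0185 to 0.333 over the alternatives). Without all arrays of number 2, 3 or 5 the IAPP call of Gclc was lost (adjusted p from 0.0501 to 0.0949), and without number 5 the C4BPD call of Gpt2 (adjusted p = 0.052). Oat and Fpgs, an ornithine aminotransferase and a folate-retaining enzyme, were lower in C4BPD than in IAPP (-0.27, adjusted p = 0.00272, and -0.25, adjusted p = 0.0026). Against DMSO in C4BPD they were at -0.18 (adjusted p = 0.0839; 0.0166 to 0.341 over the alternatives) and -0.16 (adjusted p = 0.0919; 0.00861 to 0.341 over the alternatives).

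A list of ATF4 pathway genes, not all of them regulators of it, gave 6 of 13 measured genes higher in IAPP (Trib3, Chac1, Nupr1, Ddit3, Atf5 and Atf4). In C4BPD and in C4BP 4 were higher (Trib3, Chac1, Atf5 and Atf4 in both), and none was lower in any of the 3. Of all genes 1.41%, 1.17% and 2.72% were called higher in IAPP, C4BPD and C4BP. The list was chosen with earlier results of these data known, and Nupr1 was named after its values were seen. Atf4 itself read 3746, 3437, 3687, 3368 and 3218 in DMSO, 4669, 4073, 4366, 4279 and 3961 in IAPP, 4566, 4176, 4489, 4245 and 3965 in C4BPD, and 4541, 4123, 4407, 4270 and 4092 in C4BP. No treated array overlapped DMSO, and replicate 1 was the highest of its group in all 4. Atf4 rose by 0.29, 0.30 and 0.30 on the log2 scale (adjusted p = 0.00273, 0.0033 and 0.00114), and without all arrays numbered 4 the IAPP and C4BPD calls were lost (0.0544 and 0.0543). Ddit3, the stress factor CHOP, rose by 0.46 in IAPP (adjusted p = 0.00118), was at 0.01 in C4BPD and 0.17 in C4BP, and was lower in C4BPD than in IAPP (-0.45, adjusted p = 0.00084). The interaction of Atf4 was -0.29 (adjusted p = 0.47; 0.00311 to 1.0 over the alternatives), and those of Chac1 (-0.87, adjusted p = 0.00949) and Trib3 (-1.0, adjusted p = 0.0221) passed. That of Chac1 was lost without all arrays of number 1, 3, 4 or 5 (adjusted p from 0.086 to 0.164) and with all probe sets tested (0.0503). That of Trib3 was lost without DMSO 2, IAPP 2, C4BPD 2, 3 or 5, or C4BP 3 or 4 (adjusted p from 0.0517 to 0.0595, and 0.00516 to 0.314 over the alternatives). It was also lost without all arrays of any 1 number (adjusted p from 0.0885 to 0.314) and with all probe sets tested (0.0772).

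**Figure D5:**
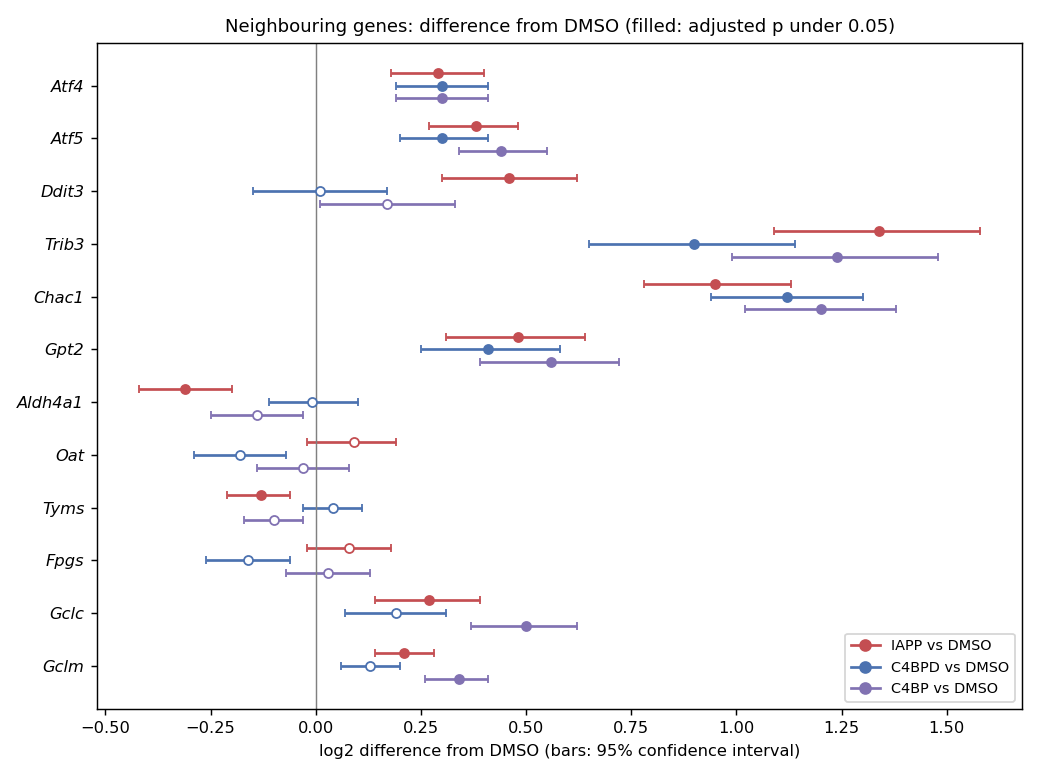
Log2 difference of each treated group from DMSO (x axis) for 12 named genes of the neighbouring pathways and of the ATF4 pathway, with 95% confidence intervals; filled points passed an adjusted p of 0.05. Trib3 and Chac1 lie farthest to the right (0.90 to 1.34), and Aldh4a1 lies left of 0 in IAPP (-0.31).

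The genes outside all of these lists whose log2 levels over the 20 arrays were most like the mean of the 10 members, by Pearson r, were Yars1 (0.937), Slc1a4 (0.920), Cars1 (0.919), Fam84b (0.914) and Slc18b1 (0.909). Yars1 and Cars1 are tyrosyl- and cysteinyl-tRNA synthetases, and Slc1a4 carries alanine, serine and cysteine into cells. The 20 points share their groups and replicate numbers, so r is a description. Cars1 averaged 912 ± 42 in DMSO, 1257 ± 28.8 in IAPP, 1308 ± 90 in C4BPD and 1322 ± 66.8 in C4BP, and Slc1a4 806 ± 63.8, 1325 ± 56.3, 1388 ± 124 and 1495 ± 107. The mean of the members, each centred on its own mean over all arrays, ran from -0.17 to -0.07 in DMSO, from -0.011 to 0.033 in IAPP, from -0.04 to 0.1 in C4BPD and from 0.052 to 0.12 in C4BP.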

How the data were processed

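The authors deposited 1 normalized intensity per probe set and array, on a linear scale, made with Affymetrix Expression Console per the submitters' processing notes; no version or algorithm is stated. Of 36685 probe sets, 190 were controls, 18511 had 1 gene symbol and 575 had several. The brightest probe set stood for each gene, which gave 18166 genes, 291 of them with more than 1 probe set. The deposited values were taken to log2 and fitted with limma 3.58.1 in R 4.3.3 as 4 title groups of 5 arrays (15 residual degrees of freedom), with Benjamini-Hochberg adjustment over all genes; the fit was tested on simulated data. The number of arrays limits the precision. Ranges of adjusted p over the alternatives leave out the grouping by the treatment field. The members, gene lists and pairs were chosen with earlier results of these data known. All members were named, and of the neighbouring lists the 12 called genes with the smallest F test p. The replicate block was fitted to all arrays at once. Deviations of same-numbered arrays had r from 0.152 to 0.305 in C4BPD vs IAPP and from -0.009 to 0.51 in C4BP vs IAPP. The range of r was 0.012 to 0.407 in IAPP vs DMSO and -0.109 to 0.249 in C4BPD vs DMSO. It was 0.01 to 0.271 in C4BP vs DMSO and -0.016 to 0.281 in C4BP vs C4BPD. In each of the 5 comparisons other than C4BPD vs IAPP at least 1 pair had r under 0.1. The titles are numbered in consecutive sets that hold 1 array of each group and share a replicate number. For replicate 1 these are IAPP (1), C4BP (2), C4BPD (3) and DMSO (4). Whether the numbers pair the arrays is not stated, and the main fit does not use them.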

Additional observations from a re-analysis of the deposited data

Results flagged for a closer look

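Of 40 sets of 5 arrays (10 genes in 4 groups), 3 held an array far from the other 4, where chance gives about 1 in 20, and all 3 were of Psat1. Psat1 read 5379 on DMSO replicate 3, against 4709 to 4857 on the others, and without that array the differences from DMSO were 0.37 in IAPP, 0.44 in C4BPD and 0.48 in C4BP. It read 6395 on IAPP replicate 3, the highest of that group, and without it IAPP vs DMSO was 0.32 (limma, adjusted p = 0.000157). It read 6450 on C4BP replicate 1, the lowest of that group, and without it C4BP vs DMSO was 0.46.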

How the results depend on the processing

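Under the grouping by the treatment field, 0 of 10 members passed in IAPP vs DMSO, C4BPD vs DMSO, C4BP vs DMSO and the F test, and 0 of 18166 genes passed in any comparison, so the count says nothing of the members in particular. These differences reversed. In IAPP vs DMSO they were Psat1 -0.08, Shmt2 -0.05, Mthfd2 -0.02, Asns -0.11, Aldh18a1 -0.05, Chac1 -0.04, Trib3 -0.09, Gclm -0.07, Atf5 -0.09, Gclc -0.15, Aldh4a1 0.02, Atf4 0.0 and Tyms 0.0. In C4BPD vs DMSO they were Psat1 -0.1, Shmt2 -0.02, Mthfd2 -0.07, Asns -0.09, Chac1 -0.09, Atf5 -0.06 and Atf4 -0.05. In C4BP vs DMSO they were Psat1 -0.2, Shmt2 -0.06, Mthfd2 -0.18, Mthfd1l -0.02, Asns -0.15, Aldh18a1 -0.11, Pycr1 -0.1, Chac1 -0.44, Trib3 -0.32, Gclm -0.15, Atf5 -0.16, Gclc -0.14, Gpt2 -0.19 and Atf4 -0.11. In C4BP vs C4BPD they were Gclm -0.05, Gclc -0.08 and Tyms 0.01, and in C4BPD vs IAPP Trib3 0.09, Aldh4a1 -0.07, Ddit3 0.01, Tyms -0.03, Fpgs 0.03 and Oat 0.01. The cause was not tested.

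Fitting only the compared groups left 3 members in IAPP vs DMSO, where calls over all genes went from 614 to 466. It also ended the calls of Shmt2 in C4BPD vs DMSO (limma, adjusted p = 0.137) and of Mthfd1l (0.138) and Pycr1 (0.062) in C4BP vs DMSO. Calls over all genes there went from 351 to 208 and from 1082 to 663. That setting gave no interaction or F test. Median centring ended the calls of Shmt2 in C4BPD vs DMSO (adjusted p = 0.0731) and Mthfd1l in C4BP vs DMSO (0.0616). Testing all probe sets ended these too (0.0867 and 0.102), with Aldh18a1 (0.0542) and Pycr1 (0.0884) in IAPP vs DMSO and Pycr1 in C4BP vs DMSO (0.0936). In C4BPD vs IAPP 1 member (Pycr1) passed after median centring, quantile normalization, array weights, without dim genes and with the replicate block. Calls over all genes in those fits were 976, 1036, 1529, 1163 (of 9083 genes) and 1908. In the interaction 1 member (Psat1) passed after quantile normalization, array weights, without dim genes and with the replicate block, where 12, 12, 14 and 18 genes passed over all. The replicate block gave 2 members in C4BP vs C4BPD (Aldh18a1, adjusted p = 0.0366, and Pycr1, 0.00548), against 958 of 18166 genes called in that fit. The block changed no call of a member beyond those named here. It also gave the interaction of Atf4 (adjusted p = 0.00311). Leaving out 1 array or 1 number gave 2 to 6 members in IAPP vs DMSO, 3 to 4 in C4BPD vs DMSO and 5 to 7 in C4BP vs DMSO. It gave 0 to 1 in C4BPD vs IAPP and in the interaction, 4 to 6 in the F test, and 0 in C4BP vs IAPP and C4BP vs C4BPD. Calls over all 18166 genes in those fits ran, in the same order, from 235 to 686, 151 to 386, 615 to 1188, 483 to 1052, 0 to 10, 716 to 1583, 18 to 135 and 200 to 522. The cause of these moves was not tested.

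Over all genes, leaving aside the grouping by the treatment field (0 calls), the count of calls moved from 614 to 1133 with the block in IAPP vs DMSO, from 351 to between 208 and 797 in C4BPD vs DMSO, from 1082 to between 663 and 1884 in C4BP vs DMSO, from 110 to between 33 and 352 in C4BP vs IAPP, from 431 to between 223 and 958 in C4BP vs C4BPD, from 992 to 1908 in C4BPD vs IAPP, from 9 to between 0 and 18 in the interaction, and from 1426 to 2604 in the F test. Without 1 number the lowest counts were 235, 151, 615, 18, 200, 483, 0 and 716 in the same order. Phgdh and Cth were dim, and whether their signal was above background is not given by these values.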
